A study of Mus musculus with 7 samples.

Results

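DNA methylation, Polycomb and histone-modifying enzymes write, read and remove the chemical marks on DNA and histones that keep genes silent or active through cell division. The group described here holds 48 genes chosen by symbol from the 35976 rows of the deposited count table. They fall into 9 classes: DNA methyltransferases with their partner Uhrf1 (4 genes), TET dioxygenases (3), Polycomb repressive complex 2 (PRC2, 5), Polycomb repressive complex 1 (PRC1, 8), the Polycomb deubiquitinase PR-DUB (3), histone methyltransferases with menin (8), histone demethylases (6), deacetylases (6) and acetyltransferases (5). All 48 passed the filter on low counts that left 14679 genes for testing.

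RNA was sequenced from lineage-negative cells of mouse fetal liver, the blood-forming organ of the embryo, at stage E14.5. The cells had been selected on magnetic beads to remove those carrying markers of mature blood lineages. The 3 control libraries came from CD45.2(+) C57BL/6 embryos with the genotype Brd9fl/fl, in which both Brd9 alleles are flanked by loxP sites. The 4 knockout libraries came from CD45.2(+) C57BL/6 Vav1-iCre Brd9fl/fl embryos, which also carry a recombinase driven by the promoter of Vav1, a gene active in blood cells. Fathers were Brd9fl/fl and mothers Vav1-iCre Brd9fl/fl. Brd9 is the bromodomain subunit that defines the non-canonical BAF remodeller, and the comparison asks which transcripts of these enzymes differ without it. Every knockout library and no control carried the recombinase, so effects of Brd9 loss and of the recombinase cannot be told apart. The labels do not say whether a library came from 1 embryo or from pooled embryos. The p-values therefore reflect library-to-library spread, part of which may be technical.

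As background, DNA methylation at CpG dinucleotides is copied after replication by Dnmt1, which Uhrf1 guides to the new strand, and is set anew by Dnmt3a and Dnmt3b. TET enzymes oxidise methylated cytosine and so open the way to its loss. PRC2 methylates histone H3 and PRC1 ubiquitinates histone H2A at repressed genes, PR-DUB removes that ubiquitin, and the KMT2 enzymes methylate H3 at promoters and enhancers of active genes. In blood, several of these genes (DNMT3A, TET2, EZH2, ASXL1, KMT2A) are recurrently mutated or rearranged in myeloid disease, and PRC1 with Bmi1 maintains stem cell self-renewal.

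Total counts ran from 18748885 to 23571878 per library. Brd9 held 30.6, 32.2 and 36.5 CPM (counts scaled to a common TMM-adjusted library size) among the controls and 8.58, 11.9, 13.2 and 12.2 CPM in the knockouts, so all 7 libraries matched their labels. Marker levels of other cell types were read in the same libraries. All 14 neutrophil markers were lower in the knockouts and 8 of them fell, with a summed level of 5029 to 8933 CPM in the controls against 1693 to 3840 CPM in the knockouts. Of 12 macrophage markers 11 were lower, with sums of 235 to 320 and 89.6 to 172 CPM. All 10 hepatocyte markers were higher, with overlapping sums of 10360 to 18270 and 13240 to 23460 CPM and 0 called, and 11 of 12 erythroid markers were higher, with sums of 2196 to 4045 and 4235 to 5970 CPM and 0 called. Of the 10 stem and progenitor markers 6 were lower and 4 higher, with a median log2 fold change of -0.0082 and 0 called. Their sums were 766 to 1021 and 593 to 808 CPM. All 8 stromal markers were higher, with overlapping sums of 21.6 to 66.0 and 23.9 to 112 CPM, and 7 of 8 endothelial markers were lower, with overlapping sums of 107 to 187 and 97.0 to 133 CPM, again with 0 called. None of these 7 lists had a marker without reads, and their part in the results below was not tested. In bulk RNA, fewer cells of a type and less RNA per cell cannot be told apart.

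Knockout replicate 3 stood apart by transcript length. With genes sorted by exon length into 4 bins, over the 3490 tested genes with the longest exons, its median log2 CPM lay 0.21 below the control mean (a difference of -0.21), and over the 3492 with the shortest it lay 0.18 above. In the other knockouts the same medians ran from -0.062 to 0.013 for the longest and from -0.0025 to 0.046 for the shortest genes. Of the 48 members, 27 belong to the bin with the longest exons and 0 to the shortest. Knockout replicate 3 was the lowest of the 7 libraries for 26 members. Where it was the lowest library of a member described library by library, the fold change without it is given too.

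No member passed the test. With edgeR's quasi-likelihood test and Benjamini-Hochberg adjustment over all genes, 0 of 48 members were called, against 0.559% of all genes tested (82 of 14679; 0.545% lower and 0.0136% higher). At an unadjusted p under 0.05 there were 5 members, all lower (Hdac7, Jarid2, Dnmt3a, Kdm2b and Tet2), against 10.9% of all genes (6.9% lower and 3.95% higher). DESeq2 called 1 member lower, Hdac7, where it called 2.19% of genes, and limma-voom called 0, where it called 0.504%. The median log2 fold change of the members was -0.073, against 0.011 over all genes tested, and 32 of 48 were below 0, against 47.6% of all genes. Without knockout replicate 3 the median was -0.029, with 30 members below 0 and 0 called. With a correction for exon length, chosen after seeing the data, it was -0.019, with 28 below 0.

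The limits on these differences were narrow for most members. For 39 of 48 the 95% interval of the fold change lay inside 1.5-fold in either direction, against 57.2% of all genes tested, and for 47 it lay inside 2-fold, against 78.5%. Interval width depends on read counts, and the members were not matched to all genes for these. The median SE was 0.11 for the members and 0.147 over all genes tested. The 9 members whose interval reached past 1.5-fold were Dnmt3a, Tet1, Tet2, Cbx7, Cbx8, Kmt2a, Kmt2c, Kmt2d and Kat6a. Tet2 alone reached past 2-fold. Among the narrowest were menin (Men1, 78.7 ± 3.6 CPM in the controls against 78.9 ± 2.7 CPM in the knockouts; SD, n = 3 and 4), with a log2 fold change of 0.0033 and an interval from -0.15 to 0.16, and Bap1, with 0.0087 and an interval from -0.14 to 0.16.

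**Figure D1:**
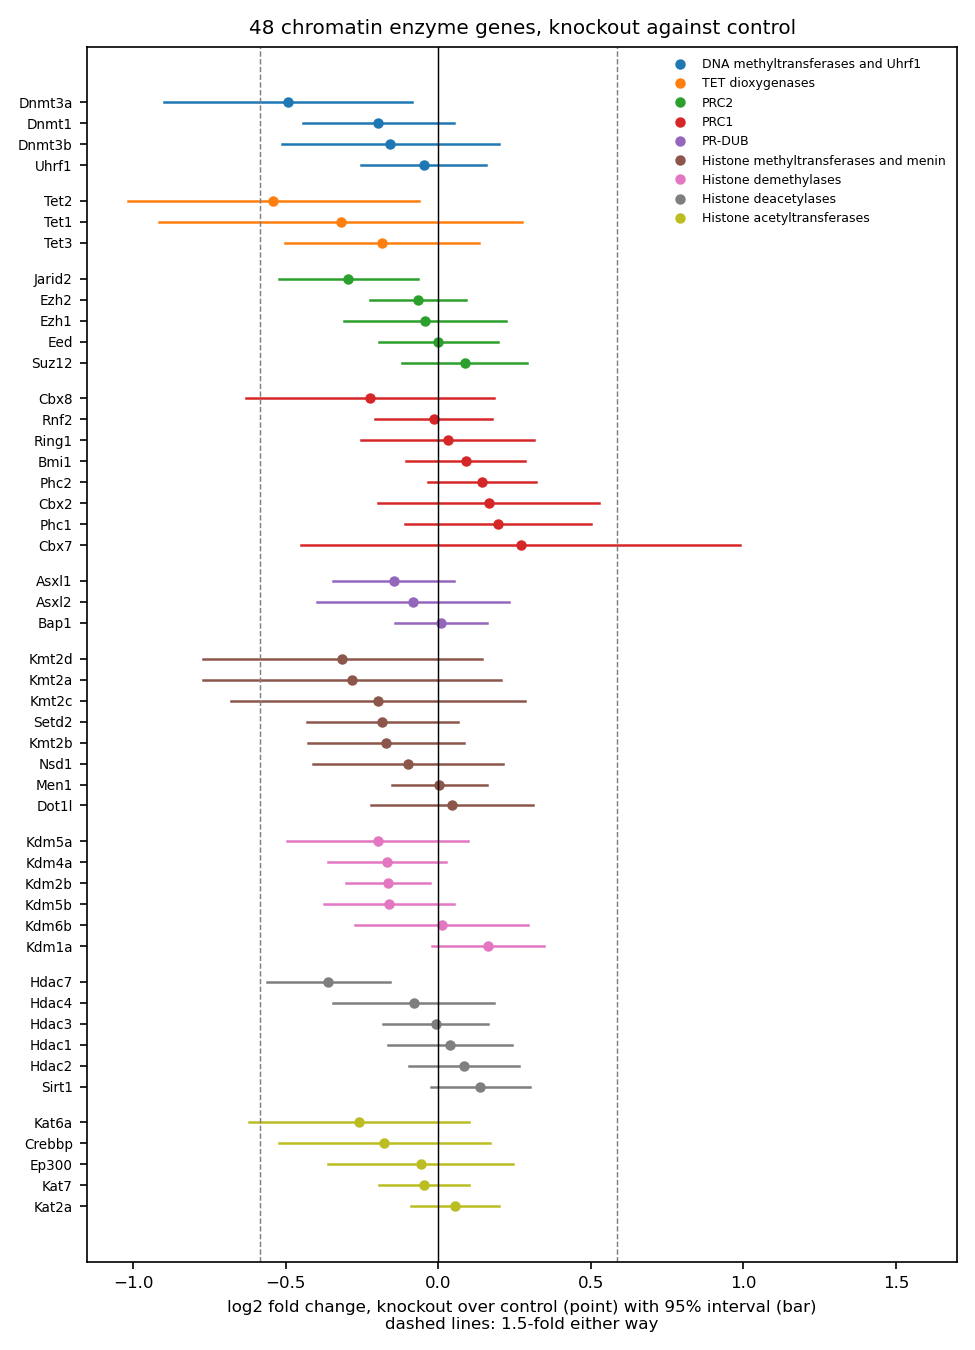
Log2 fold change of each of the 48 genes, knockout over control, as a point with its 95% interval as a bar, coloured by class; dashed lines mark 1.5-fold in either direction. For 39 genes the bar lies between the dashed lines, and for Hdac7, Jarid2, Dnmt3a, Kdm2b and Tet2 it lies wholly below 0.

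The groups did not overlap for 6 of 48 members, 5 lower (Dnmt1, Dnmt3a, Jarid2, Kdm2b and Hdac7) and 1 higher (Sirt1). Over all genes tested 11.2% had no overlap, so this share is near the background. Counted by direction, 6.81% of all genes lay lower without overlap and 4.38% higher.

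**Figure D2:**
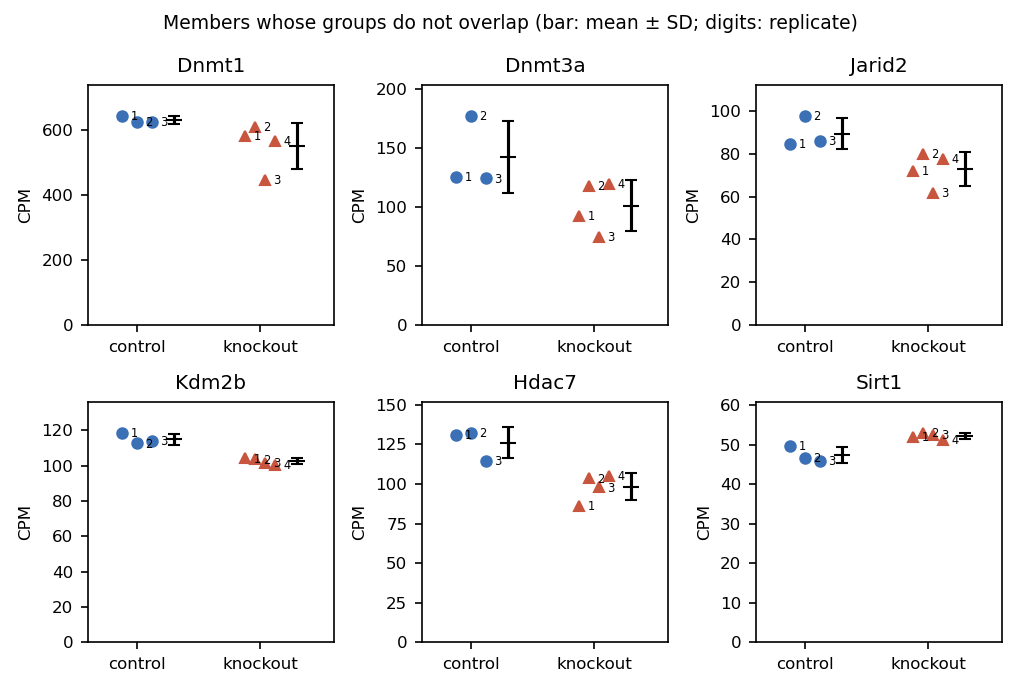
CPM of the 6 members whose control (circles) and knockout (triangles) libraries do not overlap, on axes that start at 0, with the mean and SD as a bar beside each group and the replicate number beside each point. Knockout replicate 3 is the lowest point for Dnmt1, Dnmt3a and Jarid2, while the 4 Kdm2b knockout values lie within 101 to 104 CPM.

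Among DNA methylation writers, Dnmt3a had the largest difference. Dnmt3a, the de novo methyltransferase that restrains self-renewal of blood stem cells, held 125, 177 and 124 CPM in control replicates 1 to 3 and 92.2, 118, 75.0 and 119 CPM in knockout replicates 1 to 4. All 4 knockouts lay below the lowest control, and control replicate 2 stood well above the other controls. The means were 142 ± 30.3 and 101 ± 21.4 CPM (SD, n = 3 and 4), 71.1% of control, with a log2 fold change of -0.49 (SE 0.18, 95% interval -0.90 to -0.087, edgeR adjusted p = 0.361). Without knockout replicate 3 the log2 fold change was -0.37, and without control replicate 2 it was -0.30. Dnmt3a lies on chromosome 12 from 3801559 to 3914443 (GRCm38).

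Dnmt1, the maintenance methyltransferase, held 644, 625 and 626 CPM in the controls against 582, 609, 447 and 567 CPM in the knockouts. All knockouts were below the controls, 3 of them by little and knockout replicate 3 by more. The log2 fold change was -0.20 (SE 0.11, edgeR adjusted p = 0.585), and -0.11 without knockout replicate 3. Dnmt3b, the other de novo enzyme, had overlapping groups of 62.1 to 94.6 and 56.5 to 77.0 CPM. Uhrf1, which reads newly replicated DNA, held 445 to 475 CPM in the controls against 397 to 480 CPM in the knockouts, with a log2 fold change of -0.048 and an interval from -0.25 to 0.16. Uhrf1 and Dnmt1 are known to be abundant in dividing cells. Here 13 of 16 S phase markers were higher and 0 passed, with sums of 4644 to 5384 CPM in the controls against 4803 to 5722 CPM in the knockouts.

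The 3 TET genes were all lower, and none passed. Tet2, which oxidises methylcytosine and restrains myeloid expansion, held 31.9, 47.0 and 34.9 CPM in the controls against 20.5, 29.4, 19.99 and 34.6 CPM in the knockouts. The groups overlapped, since knockout replicate 4 lay within the controls. Tet2 was at 68.8% of control, with a log2 fold change of -0.54 (SE 0.21, edgeR adjusted p = 0.400), -0.43 without knockout replicate 3 and -0.36 without control replicate 2. Tet3, the most abundant of the 3 per exon length, held 133, 152 and 125 CPM in the controls against 117, 137, 90.3 and 136 CPM in the knockouts (log2 fold change -0.18, SE 0.14). Without knockout replicate 3 the Tet3 value was -0.070, and without control replicate 2 it was -0.10. Tet1 held 10.1 to 16.9 and 7.26 to 13.4 CPM. Its log2 fold change of -0.32 (SE 0.26) was -0.033 without control replicate 2.

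The PRC2 core overlapped between the groups. Ezh2, the main methyltransferase of PRC2, held 183 to 197 CPM in the controls against 173 to 189 CPM in the knockouts, a log2 fold change of -0.066 with an interval from -0.22 to 0.091. Eed, which binds the mark that PRC2 makes, had means of 72.4 ± 6.5 and 72.4 ± 4.5 CPM (SD, n = 3 and 4). Suz12, the scaffold, held 272, 227 and 254 CPM in the controls against 285, 275, 242 and 264 CPM in the knockouts (log2 fold change 0.087, SE 0.091). Ezh1, the less active paralogue of Ezh2, held 21.6 to 23.1 and 19.1 to 25.3 CPM. The member of PRC2 whose groups did not overlap was Jarid2, an accessory subunit that helps recruit the complex. Jarid2 held 84.6, 97.7 and 85.9 CPM in the controls against 72.0, 80.1, 61.9 and 77.4 CPM in the knockouts, with no overlap. Its mean was 81.5% of control, with a log2 fold change of -0.29 (SE 0.10, edgeR adjusted p = 0.326) that was -0.23 (SE 0.078) without knockout replicate 3. Jarid2 lies on chromosome 13 from 44730774 to 44921643.

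PRC1 was the class with the largest share of members above control, 6 of 8, and none passed. The class median log2 fold change was 0.12, and from 0.044 (without control replicate 3) to 0.16 (without control replicate 1) when single libraries were left out. The 14 other PRC1 genes, read with the relatives below, did not share this lean. Of them 8 were lower and 6 higher, with a median log2 fold change of -0.018. Phc2, a polyhomeotic subunit that lets PRC1 form larger assemblies, held 73.1, 66.3 and 67.0 CPM in the controls against 74.4, 75.0, 82.8 and 71.7 CPM in the knockouts. Only knockout replicate 4 overlapped the controls, and the log2 fold change was 0.14 (SE 0.078, edgeR adjusted p = 0.575). Phc1, its paralogue, held 24.4, 27.9 and 19.6 CPM and 24.5, 27.0, 29.8 and 28.8 CPM, with a log2 fold change of 0.20 (SE 0.14). Bmi1, the subunit tied to stem cell self-renewal, held 44.6 to 49.1 and 45.5 to 52.7 CPM, with an interval from -0.11 to 0.29. The catalytic subunits Ring1 (27.4 to 34.6 and 27.6 to 36.9 CPM) and Rnf2 (61.4 to 64.1 and 56.8 to 69.3 CPM) overlapped between groups. The chromodomain subunits, which bind the PRC2 mark, were at low level: Cbx2 at 12.3 ± 0.9 and 13.7 ± 2.6 CPM, Cbx8 at 6.38 ± 1.25 and 5.47 ± 0.41 CPM, and Cbx7 at 2.52 ± 0.85 and 3.04 ± 0.82 CPM (SD, n = 3 and 4). Cbx7 had as few as 33 reads in a library, and its interval ran from -0.45 to 0.99.

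In PR-DUB, Bap1, the deubiquitinase, held 128 to 142 CPM in the controls against 131 to 139 CPM in the knockouts. Its partner Asxl1 held 147, 147 and 138 CPM in the controls against 129, 135, 113 and 143 CPM in the knockouts, a log2 fold change of -0.15 (SE 0.088, edgeR adjusted p = 0.609) that was -0.084 without knockout replicate 3. Asxl2, the other partner, held 97.2, 92.7 and 86.3 CPM and 83.8, 97.0, 65.1 and 102 CPM, and its log2 fold change went from -0.083 to 0.033 without knockout replicate 3. In both, knockout replicate 3 was the lowest library.

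Among histone methyltransferases with menin, knockout replicate 3 was the lowest of the 7 libraries for 7 of 8 members, and none passed. Kmt2d, which methylates H3 at enhancers, held 211, 228 and 200 CPM in the controls against 157, 188, 109 and 230 CPM in the knockouts. Knockout replicate 4 was above every control and knockout replicate 3 far below. The log2 fold change of -0.31 (SE 0.20, edgeR adjusted p = 0.632) was -0.15 without knockout replicate 3. Kmt2a, the enzyme that maintains Hox expression in blood progenitors, held 127 to 156 CPM in the controls against 109, 141, 70.9 and 150 CPM in the knockouts, with -0.28 that became -0.10. Kmt2c, the paralogue of Kmt2d, went from -0.20 to -0.015. Setd2, the methyltransferase of transcribed gene bodies, held 134, 148 and 126 CPM and 114, 127, 101 and 138 CPM, with -0.18 that became -0.11.

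The other members of that class differed by less. Men1, which binds Kmt2a, differed least, with values of 76.4 to 82.9 and 77.2 to 83.0 CPM. Dot1l, which methylates H3 in gene bodies and is needed in leukaemias with KMT2A fusions, held 138 to 153 CPM in the controls against 156, 162, 115 and 160 CPM in the knockouts. Without knockout replicate 3 all knockouts lay above the controls, and its log2 fold change went from 0.046 to 0.15 (edgeR adjusted p = 0.386). Kmt2b and Nsd1 had log2 fold changes of -0.17 (SE 0.11) and -0.098 (SE 0.14), which were -0.085 and 0.015 without that library.

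**Figure D3:**
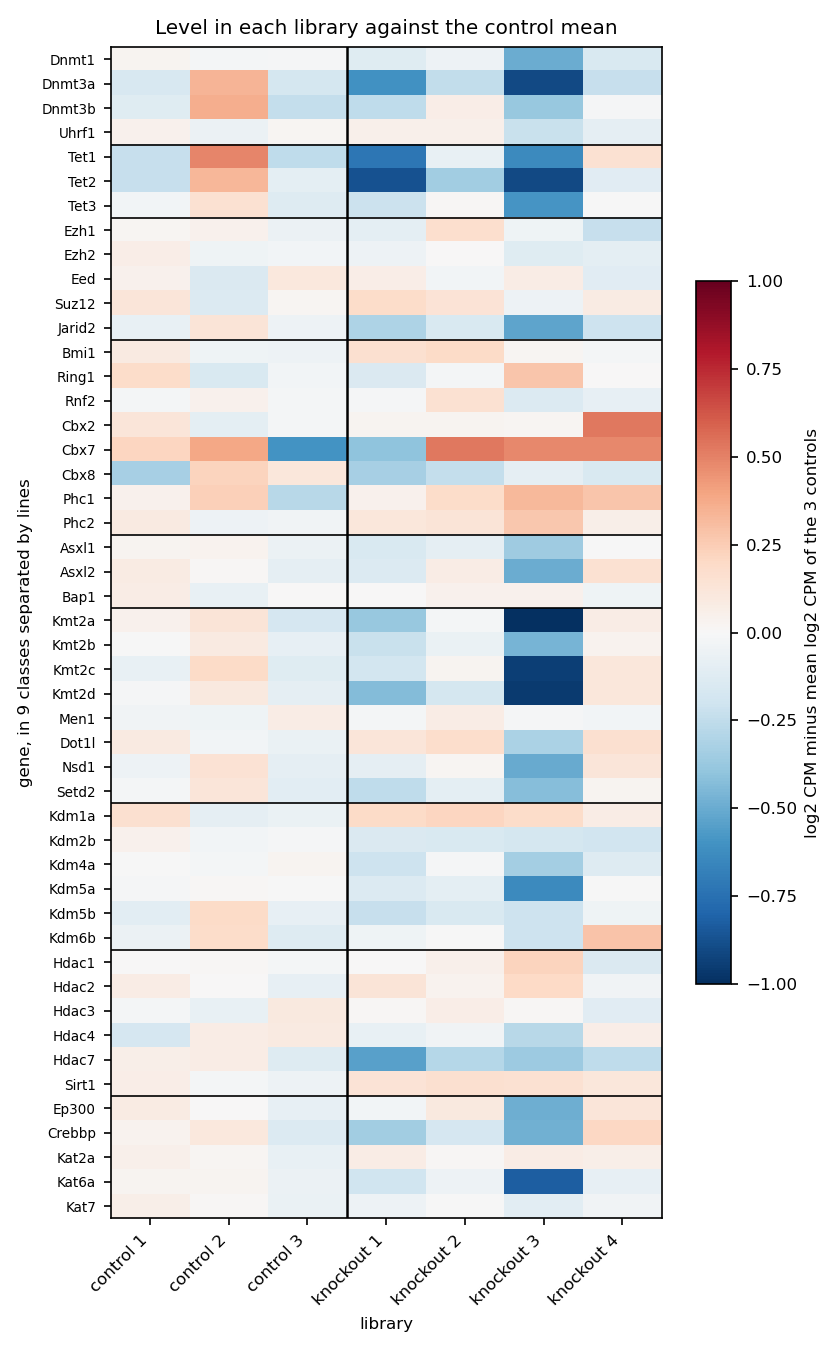
Each of the 48 genes (rows, in 9 classes separated by lines) in each of the 7 libraries (columns), as log2 CPM minus the mean log2 CPM of the 3 controls; red is higher and blue lower. The column of knockout replicate 3 is blue for Kmt2a, Kmt2c, Kmt2d, Kat6a, Kdm5a and the TET genes, and knockout replicate 1 is blue for Tet1, Tet2, Dnmt3a and Hdac7.

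Among the 6 histone demethylases, 4 were lower and none passed. Kdm2b, which binds unmethylated CpG islands and brings a variant PRC1 to them, held 118, 113 and 114 CPM in the controls against 104, 103, 102 and 101 CPM in the knockouts. The groups did not overlap and each was tight, with means of 115 ± 3.0 and 102 ± 1.6 CPM (SD, n = 3 and 4). The log2 fold change was -0.17 (SE 0.061, edgeR adjusted p = 0.363), nearly the same without knockout replicate 3 (-0.16), but -0.077 (SE 0.081) with the correction for exon length. Kdm2b lies on chromosome 5 from 122870664 to 122989270, and 8.74% of its exon bases are shared with exons of other annotated genes. Kdm1a, which removes methyl groups from H3 with the repressors Gfi1 and Rcor1, was the member of the class furthest above control. It held 110, 92.8 and 94.7 CPM in the controls against 113, 115, 112 and 104 CPM in the knockouts, and control replicate 1 lay within the knockouts (log2 fold change 0.16, SE 0.082, edgeR adjusted p = 0.529).

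The remaining demethylases overlapped between groups. Kdm4a held 90.1 to 93.3 CPM in the controls against 72.1 to 90.9 CPM in the knockouts, and Kdm5a 114 to 116 and 73.8 to 115 CPM. Kdm5b, which removes the promoter mark that KMT2 enzymes write, held 58.8 to 72.0 and 53.9 to 61.5 CPM. Kdm6b, which removes the PRC2 mark, held 51.4 to 64.1 and 48.7 to 68.6 CPM, with an interval from -0.27 to 0.29.

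Deacetylases held the member with the smallest p, Hdac7. Hdac7 is a class IIa deacetylase that represses genes of other lineages in lymphoid progenitors. It held 131, 132 and 115 CPM in the controls against 86.2, 103, 97.9 and 105 CPM in the knockouts. All 4 knockouts lay below the lowest control, with means of 126 ± 9.7 and 98.2 ± 8.6 CPM (SD, n = 3 and 4), 77.9% of control. The log2 fold change was -0.36 (SE 0.090, 95% interval -0.56 to -0.16), with an edgeR adjusted p = 0.147. Adjusted p-values over the alternatives ran from 0.046 to 0.413, and the log2 fold change from -0.42 to -0.31 when single libraries were left out. It was -0.36 without knockout replicate 3 and -0.33 with the correction for exon length. In the authors' deposited table, made with DESeq2 on the same libraries, Hdac7 has a log2 fold change of -0.36 and a DESeq2 adjusted p = 0.046. It is the only 1 of the 48 members under 0.05 there. The DESeq2 alternative used here gave the same values for Hdac7, so the deposited result is not separate evidence. Hdac7 lies on chromosome 15 from 97792661 to 97844502.

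Sirt1, a deacetylase that depends on NAD, was the only member above every control in every knockout. It held 49.7, 46.8 and 45.8 CPM in the controls against 52.1, 53.0, 52.6 and 51.2 CPM in the knockouts, at 110% of control with a log2 fold change of 0.14 (SE 0.073, edgeR adjusted p = 0.557). Sirt1 lies on chromosome 10 from 63319005 to 63339035. The class I deacetylases Hdac1 (181 to 184 and 165 to 214 CPM), Hdac2 (148 to 164 and 152 to 180 CPM) and Hdac3 (75.3 to 84.7 and 73.1 to 82.9 CPM), which work in the NuRD, Sin3 and NCoR corepressor complexes, overlapped between groups. Hdac4 held 23.4 to 28.0 and 21.6 to 27.5 CPM, and 22.4% of its exon bases are shared with an annotated gene on the other strand.

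Among acetyltransferases, Kat6a was the member with the largest difference. Kat6a, which blood stem cells need, held 138, 138 and 130 CPM in the controls against 118, 130, 76.6 and 128 CPM in the knockouts. Knockout replicate 2 reached the lowest control, and the log2 fold change of -0.26 (SE 0.16, edgeR adjusted p = 0.615) was -0.11 without knockout replicate 3. Crebbp held 50.1, 52.4 and 44.3 CPM and 38.4, 43.5, 35.1 and 56.3 CPM, and its log2 fold change of -0.18 was -0.088 without knockout replicate 3. Its paralogue Ep300, a coactivator like it, held 122 to 137 and 92.2 to 140 CPM. Kat2a, the acetyltransferase of the SAGA complex, held 105 to 114 and 111 to 116 CPM. Kat7, which acetylates H3 in blood stem cells, held 110 to 120 and 107 to 115 CPM, with an interval from -0.19 to 0.10.

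Exon length went with the members' differences in knockout replicate 3. Across the 48 genes, its difference from the control mean in log2 CPM had a Pearson correlation of -0.79 with log2 exon length. The value was -0.56 in knockout replicate 1, -0.38 in knockout replicate 2 and 0.093 in knockout replicate 4. In control replicates 1 to 3 it was -0.35, 0.48 and -0.28. These points are genes measured in 1 library and are not independent replicates. The median exon length of the members was 7009 bases, against 4261 over the 13967 tested genes with a length.

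**Figure D4:**
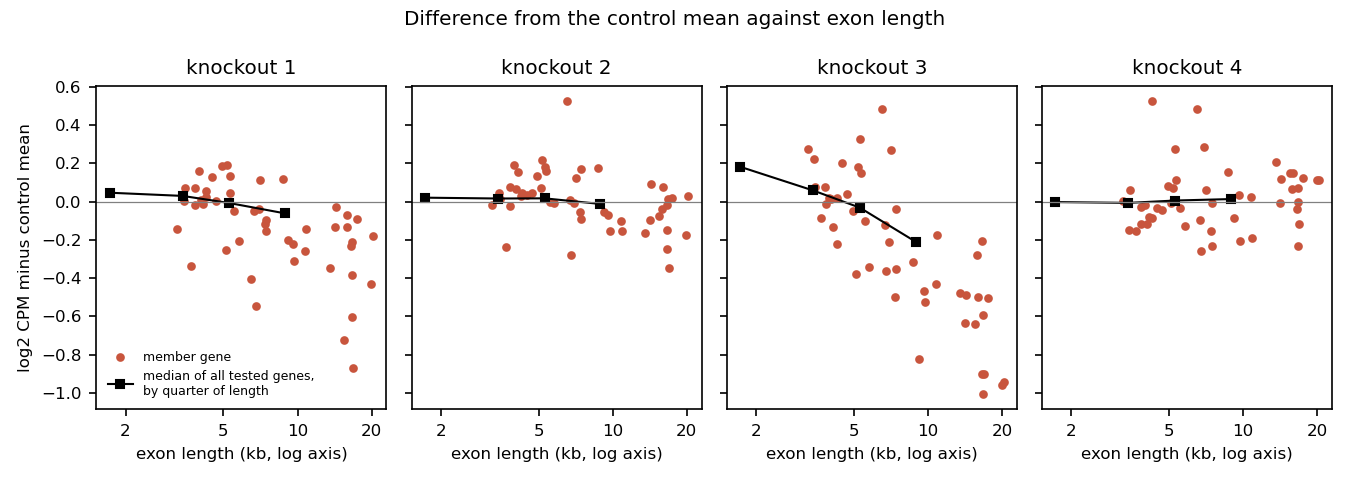
Log2 CPM minus the control mean against exon length (log axis) in each of the 4 knockout libraries, for the 48 genes (points) and for all tested genes as the median of each of 4 length bins (squares joined by lines). In knockout replicate 3 both slope downwards, with all-gene medians from 0.18 for the shortest to -0.21 for the longest bin.

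Levels of different genes were compared per exon length, as CPM per kilobase of exon (RPKM). Uhrf1 was highest at 109 ± 3.7 RPKM in the controls, followed by Dnmt1 (85.7 ± 1.5), Hdac1 (53.1 ± 0.5), Suz12 (50.7 ± 4.5) and Hdac2 (34.9 ± 1.9; SD, n = 3). Hdac1 and Suz12 did not differ beyond their spread. The lowest were Cbx7 (0.389 ± 0.131), Tet1 (0.805 ± 0.252), Hdac4 (1.67 ± 0.16), Cbx8 (1.74 ± 0.34) and Tet2 (2.25 ± 0.47 RPKM), of which Hdac4 and Cbx8 did not differ beyond their spread. The median over all 48 was 10.9 RPKM. Exon length here is all annotated exon sequence of a gene, so genes with many alternative exons read low on this scale.

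**Figure D5:**
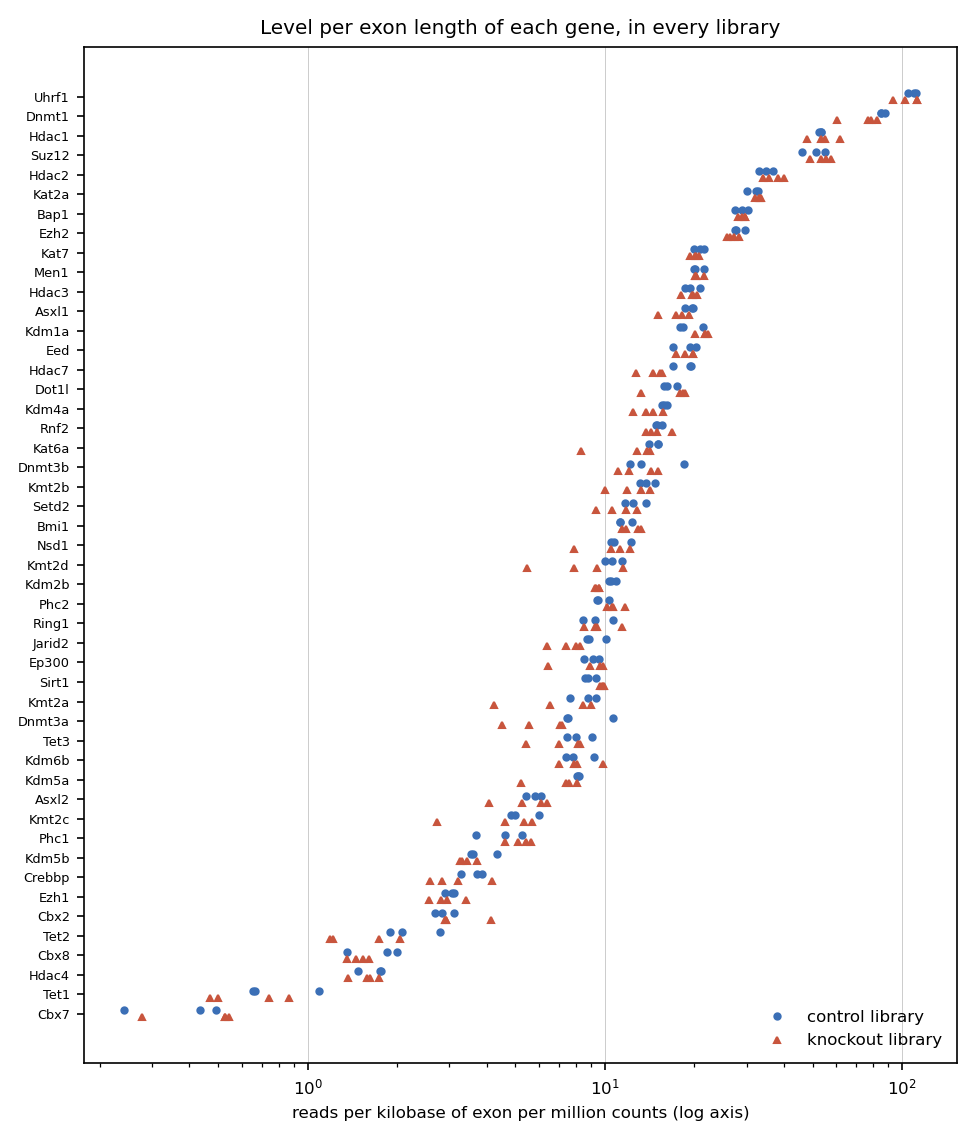
CPM per kilobase of exon (RPKM, log axis) of each of the 48 genes in every control (circles) and knockout (triangles) library, ordered by the control mean. Control means run from 0.389 RPKM for Cbx7 to 109 RPKM for Uhrf1, and the groups overlap for 42 of the 48.

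Ratios of level per exon length overlapped between groups for 10 of 11 pairs of paralogues. Ezh2 exceeded Ezh1 by 9.34 ± 0.45-fold in the controls and 9.26 ± 0.86-fold in the knockouts, and Hdac1 exceeded Hdac2 by 1.52 ± 0.07-fold and 1.47 ± 0.08-fold (SD, n = 3 and 4). Hdac7 exceeded Hdac4 by 11.3 ± 1.8-fold and 9.28 ± 1.04-fold, with overlap between groups. The pair without overlap was Dnmt3a and Dnmt3b. The share without overlap among other gene pairs was not measured, and among single genes tested it was 11.2%. The ratio of Dnmt3a to Dnmt3b was 0.570, 0.575 and 0.614 in the controls against 0.459, 0.470, 0.408 and 0.502 in the knockouts. The lowest ratio was in knockout replicate 3. Dnmt3a has the longer exon sequence of this pair.

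Other subunits and relatives of the same 9 classes were read from the same fit. Of 114 such genes 113 could be tested, 0 passed in edgeR, 66 were lower (47.6% of all genes were) and 47 higher, with a median log2 fold change of -0.031. These tallies of relatives include sex-linked genes. The Y-linked Kdm5d and Uty count as higher and the X-linked Kdm6a as lower, and their levels split with Y-linked reads, as described below. At an unadjusted p under 0.05 there were 15, 9 lower and 6 higher, where all genes had 10.9% (6.9% lower and 3.95% higher), and 21 of 113 had no overlap between groups, against 11.2% of all genes tested. DESeq2 called 1 of them, Pcgf5, where it called 2.19% of all genes, and limma-voom 0. Among PRC1 relatives, Pcgf5, a ring finger subunit of variant PRC1, held 42.2, 58.3 and 45.01 CPM in the controls against 35.3, 34.2, 32.7 and 37.5 CPM in the knockouts (log2 fold change -0.47, SE 0.12, edgeR adjusted p = 0.150). All knockouts lay below the lowest control. Pcgf2, the ring finger paralogue of Bmi1, held 6.22, 7.25 and 7.59 CPM in the controls against 10.3, 8.67, 10.5 and 12.7 CPM in the knockouts, all above the highest control (log2 fold change 0.58, SE 0.17, edgeR adjusted p = 0.218).

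Among PRC2 relatives, Epop, a PRC2 accessory protein listed under an older symbol, held 5.98 to 9.48 CPM in the controls against 10.4 to 12.8 CPM in the knockouts (log2 fold change 0.64, SE 0.18, edgeR adjusted p = 0.220). Phf19, another accessory protein of PRC2, held 21.9 to 26.2 and 27.1 to 31.0 CPM. Hdac11, the class IV deacetylase, held 11.7 to 16.7 and 19.1 to 24.6 CPM (log2 fold change 0.51, SE 0.16, edgeR adjusted p = 0.255). Mta3, a NuRD subunit, held 59.4 to 71.0 and 70.9 to 73.6 CPM. The methyl-CpG binding proteins Mbd3 (157 to 162 and 177 to 208 CPM) and Mbd1 (106 to 111 and 92.6 to 98.7 CPM) stood on opposite sides of control. Brd1 (107 to 109 and 81.0 to 100 CPM) and Brpf1 (82.3 to 92.7 and 76.2 to 79.3 CPM), scaffolds of acetyltransferase complexes, were lower without overlap.

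Among the other classes, Phf2, a demethylase of the PHF family, held 103 to 108 and 79.2 to 97.8 CPM, and Jmjd1c, a relative of the KDM3 demethylases, 139 to 151 and 89.9 to 132 CPM. Setd1b, an H3 methyltransferase, held 98.9 to 104 and 62.5 to 96.9 CPM, and Smyd2, a lysine methyltransferase, 67.5 to 71.2 and 74.2 to 83.6 CPM. Mbd5, which binds PR-DUB, held 12.9 to 17.8 and 8.81 to 12.5 CPM, and Foxk1, a transcription factor that binds it too, 68.8 to 77.7 and 44.8 to 70.0 CPM. Tdg, the glycosylase that removes oxidised methylcytosine, held 109 to 116 and 121 to 156 CPM. Apobec1, a cytidine deaminase, had a log2 fold change of -0.32 (SE 0.21) with overlap between groups. For Setd1b, Phf2, Jmjd1c, Brd1, Mbd5, Pcgf5 and Foxk1 the lowest knockout was replicate 3. Leaving it out moved the log2 fold change of Setd1b from -0.30 to -0.19 and that of Foxk1 from -0.27 to -0.16.

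Sex-linked demethylases split the libraries, and the split was uneven between the groups. Y-linked reads were present in control replicate 2 and in knockout replicates 1, 3 and 4. Sex is thus partly confounded with genotype, was not a term in the test, and its part in the differences above was not tested. Kdm5d and Uty, Y-linked relatives of Kdm5c and Kdm6a, had no read in control replicates 1 and 3 and knockout replicate 2, where 0 counts allow up to 0.138 CPM. In the 4 other libraries Kdm5d held 32.0 to 44.3 CPM and Uty 23.6 to 27.9 CPM. The X-linked Kdm6a held 79.8, 75.4 and 83.8 CPM in the 3 libraries without Y-linked reads and 34.7 to 43.4 CPM in the others. No member of the 48 lies on a sex chromosome.

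The promoters of members were richer in CpG, at the median, than those of all genes. RefSeq's table of promoter sequences (GRCm38.p6) held 40 of the 48 genes with 56 listed transcript starts. In the 250 bases before the start, the median number of CpG dinucleotides was 22, against 6 over 32851 listed starts of all genes. The observed CpG count was over 0.6 of that expected from base composition at 75.0% of member starts and 34.0% of all starts. All starts came from 27025 genes, which include genes with too few reads to test here, while every member was tested. CpG content among the tested genes alone was not measured. The motifs searched, on both strands, were GGGCGG (73.2% of member starts and 32.7% of all), CCAAT (37.5% and 33.8%), CCGGAAG (7.14% and 6.91%), TTTCCCGC (1.79% and 0.895%), TTTGGCGC (0 and 0.417%) and the NRF1 motif (0 and 0.782%). GGGCGG itself contains a CpG. The 250 bases before the outermost listed start are shown for 3 members without overlap between groups, the lower Hdac7 and Jarid2 and the higher Sirt1, with each CpG in capitals. They lie at chr15:97844503-97844752 on the minus strand (6 CpG), chr13:44730524-44730773 on the plus strand (23 CpG) and chr10:63339036-63339285 on the minus strand (39 CpG). Hdac7 has 4 listed starts, with 6 CpG before the outermost and 5, 25 and 21 CpG before the others.
Hdac7: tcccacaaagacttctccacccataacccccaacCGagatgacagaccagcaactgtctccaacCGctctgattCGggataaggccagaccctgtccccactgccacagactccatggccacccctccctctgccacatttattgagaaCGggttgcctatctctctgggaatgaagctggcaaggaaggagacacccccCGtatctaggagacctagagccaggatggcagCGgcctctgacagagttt
Jarid2: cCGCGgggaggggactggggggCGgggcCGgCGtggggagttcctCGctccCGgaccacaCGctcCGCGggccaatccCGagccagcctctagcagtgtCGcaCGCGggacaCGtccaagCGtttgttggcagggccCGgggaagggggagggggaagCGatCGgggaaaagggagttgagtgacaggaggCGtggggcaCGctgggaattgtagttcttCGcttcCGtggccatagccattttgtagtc
Sirt1: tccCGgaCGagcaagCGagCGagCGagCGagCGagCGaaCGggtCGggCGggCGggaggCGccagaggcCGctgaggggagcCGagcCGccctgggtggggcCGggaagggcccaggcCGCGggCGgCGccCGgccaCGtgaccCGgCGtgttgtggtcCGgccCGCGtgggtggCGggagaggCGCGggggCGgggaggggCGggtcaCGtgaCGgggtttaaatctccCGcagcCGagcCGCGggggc
These letters say nothing of which start was used, since counts were summed over each gene.

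Genes known as targets of DNA methylation or Polycomb were at low summed levels in both groups. Other cell types in the fraction could contribute reads of these genes, which was not tested. Of 17 germline genes known to be silenced by DNA methylation, 5 had no read in any library, and the list summed to 3.23 to 4.14 CPM in the controls against 3.44 to 5.85 CPM in the knockouts. Of 20 developmental regulators known as Polycomb targets, 4 had no read, and the list summed to 18.1 to 21.8 and 15.2 to 33.8 CPM. Of the 6 that could be tested, 5 were higher and 1 lower, with 0 called. Both ranges overlapped, with the highest sums in knockout replicate 4 for the germline genes and knockout replicate 1 for the Polycomb targets. In knockout replicates 1 to 4 the Polycomb targets summed to 33.8, 18.9, 15.2 and 30.2 CPM. The hepatocyte markers summed to 22150, 14400, 13240 and 23460 CPM in the same libraries. In control replicates 1 to 3 the sums were 18.1, 18.8 and 21.8 CPM and 14480, 10360 and 18270 CPM. Their relation was not tested.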

How the data were processed

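The authors deposited raw read counts per gene symbol for 7 libraries, and the submitters' processing notes name HISAT2, featureCounts and the mm10 build. Libraries were polyA RNA made with a stranded kit, per the labels' protocols. The sources used here give no versions, annotation or strand setting, so reads of overlapping or near-identical genes could have been split. The authors' deposited DESeq2 table gives the log2 fold change and its standard error, raw and adjusted p-values, the statistic as a score and a mean signal of size-factor-scaled counts.

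Groups came from sample titles. Counts were filtered (filterByExpr), scaled by TMM and tested with edgeR 4.0.16 (R 4.3.3; glmQLFit, glmQLFTest) on group alone over all 7 libraries. Changed means a Benjamini-Hochberg adjusted p under 0.05 over all 14679 genes; intervals are 95%. CPM are shares of TMM-scaled totals, with a prior count of 2 on the log2 scale. Exon length is the union of GENCODE M21 exons. Scripts were tested on simulated data. Alternatives used DESeq2 1.42.0, limma-voom 3.58.1, other scalings and filters, a replicate block, left-out libraries and, chosen after seeing the data, length-trend offsets. No 2 libraries of a group agreed within sampling noise (lowest chi-square per degree of freedom 9.16).

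The members and lists were chosen with earlier results of these data known. Given library by library are members past the threshold or without overlap and the 2 of each class with the smallest p, likewise for relatives; sex-linked genes were named after their values were seen. Limits at 0 counts cover counting error only.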

Additional observations from a re-analysis of the deposited data

Results flagged for a closer look

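For 4 members, 1 of the 4 knockout libraries lay far from the other 3, with a gap to the nearest of them above Dixon's 95% critical value. Chance flags about 1 in 20 groups of this size. Cbx2, a chromodomain subunit of PRC1, held 17.6 CPM in knockout replicate 4 and 12.4 to 12.5 CPM in the other knockouts. Cbx7, another, held 1.80 CPM in knockout replicate 1 and 3.41 to 3.52 CPM in the others. Men1 held 83.0 CPM in knockout replicate 2 and 77.2 to 78.0 CPM in the others. Dot1l held 115 CPM in knockout replicate 3 and 156 to 162 CPM in the others.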

How the results depend on the processing

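No member and no relative was called in any fit that left out 1 library (0 to 0 for both), while the number of genes called over the whole table ranged from 20 to 120 (49 and 20 on dropping control replicates 2 and 3, and 51, 21 and 37 on dropping knockout replicates 1, 2 and 4) and the members' median log2 fold change from -0.13 to -0.029. With no filter on low counts 228 genes were called and with DESeq2 382, of which 1 was a member (Hdac7) and 1 a relative (Pcgf5). With a replicate block, 2 members were called lower, Dnmt3a (log2 fold change -0.59, edgeR adjusted p = 0.033) and Tet2 (-0.71, edgeR adjusted p = 0.041). That fit called 0 relatives and 121 genes in all. Replicate number 4 occurs only among the knockouts, so knockout replicate 4 added nothing to the group difference in that fit. The Tet2 level of this library lay within the controls. The replicate numbers did not pair the libraries (correlations of same-numbered deviations 0.17, -0.022 and -0.0052). Of the 48 members, 32 kept their sign in every setting. With the replicate block, log2 fold changes turned to 0.011 for Ezh1, 0.040 for Eed, 0.0026 for Rnf2, -0.0068 for Dot1l, -0.086 for Kdm6b and 0.028 for Hdac3. With length-trend offsets they turned to 0.0002 for Ezh1, 0.035 for Asxl2, -0.0078 for Men1, 0.036 for Nsd1, 0.050 for Hdac4 and 0.048 for Ep300. Eed turned to 0.0010 with DESeq2 size factors, 0.0006 with DESeq2 and 0.0023 with limma-voom. With total counts Bap1 was -0.0041, Men1 -0.0094 and Kdm6b -0.0017, and with no filter Men1 was -0.0017. Leaving out single libraries gave -0.27 to 0.049 for Dnmt3b, -0.090 to 0.0051 for Uhrf1, -0.12 to 0.015 for Ezh1, -0.072 to 0.055 for Eed, -0.060 to 0.13 for Ring1, -0.076 to 0.022 for Rnf2, -0.17 to 0.033 for Asxl2, -0.031 to 0.050 for Bap1, -0.021 to 0.043 for Men1, -0.18 to 0.015 for Nsd1, -0.090 to 0.11 for Kdm6b, -0.030 to 0.095 for Hdac1, -0.046 to 0.041 for Hdac3 and -0.12 to 0.061 for Ep300. The cause was not tested. Counts per library ran from 33 (Cbx7) to 15089 (Dnmt1).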
